A study of Homo sapiens with 6 samples.

Results

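Ribosomal proteins are the protein part of the cytosolic ribosome. The large subunit (RPL and RPLP genes) forms peptide bonds, and the small subunit (RPS genes) binds mRNA and reads codons. Most of these genes give short, abundant mRNAs that begin with a C and a run of pyrimidines, the 5′ terminal oligopyrimidine (TOP) element, through which mTORC1 and the RNA-binding protein LARP1 control their translation and stability together. Human ribosomal protein genes also have many processed pseudogenes, which are copies of the mRNA inserted elsewhere in the genome, and several of the genes carry small nucleolar RNAs (snoRNAs) in their introns.

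The genes described were the rows of type mRNA whose symbol was RPL, RPS or RPLP followed by a number and at most one letter A or X, together with RPSA. They came to 77 of 54261 rows, 46 of the large and 31 of the small subunit. Their expression was compared between A549 cells in which SNHG17, a long noncoding RNA, was knocked down with an siRNA (group si-SNHG17, 3 libraries) and A549 cells given a control siRNA (group si-NC, 3 libraries). A549 is an established human lung adenocarcinoma line, and SNHG17 itself hosts snoRNAs. The sources used here do not give the siRNA sequences, the dose or the time after transfection. Nothing in the labels says whether the libraries of a group were separate cultures, and the p-values may therefore reflect only technical spread.

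The si-SNHG17 libraries held 8643076 to 12477214 counts and the si-NC libraries 8867818 to 10978513. SNHG17 had 7.80, 8.37 and 11.25 CPM (counts per 1000000 counts of the scaled library) in si-SNHG17 libraries, against 38.6, 36.1 and 51.3 CPM in si-NC libraries, a log2 fold change of -2.21 ± 0.17 (SE; edgeR's quasi-likelihood test, Benjamini-Hochberg adjusted p = 2.84e-07). Within the si-NC group, replicate 3 stood apart from replicates 1 and 2 (chi-square per degree of freedom of 8.85 and 8.40, while those 2 differed by 2.25). All 5 epithelial markers passed the low-count filter, and their summed level was 4974 to 4991 CPM in si-SNHG17 and 8393 to 9394 CPM in si-NC libraries. No leukocyte or fibroblast marker passed the filter, and PTPRC, CD3E, COL1A2 and COL3A1 among them had no reads. Of the 5 alveolar type II markers, SFTPA1 and SFTPB had no reads and NAPSA passed the filter. Their summed level was 2.73 to 3.33 CPM in si-SNHG17 and 1.77 to 2.055 CPM in si-NC libraries. Counts of the 13 mitochondrial mRNAs took 3.22% ± 0.14 of si-SNHG17 and 6.17% ± 0.42 of si-NC libraries (SD, n = 3 each), and the part of this difference in the shares below was not tested.

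The genes have in common how their mRNAs begin. Of the 62 genes matched by symbol to RefSeq promoters (GRCh38.p14), 46 (74.2%) had a transcript start that was a C followed by at least 4 pyrimidines (C or T, read on the gene's strand), against 5.14% of all 27305 genes in that table. A run of this kind beginning within 10 bases of the start was present in 85.5% of the matched genes and in 32.9% of all genes. The starts of 9 called genes are shown as examples. Each has 10 bases before and 20 after the start, with capitals marking the pyrimidine run that begins at the start. The first 6 belong to genes called higher in si-SNHG17 cells, the next 2 to genes called lower, and the last, RPS28, was called higher without a C at this start. In RPS28 a run of this kind begins just after the start.
RPL13A: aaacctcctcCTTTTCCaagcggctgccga, chr19:49487598-49487627, plus strand
RPL28: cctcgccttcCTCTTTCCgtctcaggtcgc, chr19:55385922-55385951, plus strand
RPS27: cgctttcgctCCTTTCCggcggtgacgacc, chr1:153990752-153990781, plus strand
RPL13: gggccgcttcCTTTCCgctcggctgttttc, chr16:89560672-89560701, plus strand
RPL31: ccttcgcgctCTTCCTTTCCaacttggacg, chr2:101002279-101002308, plus strand
RPS6: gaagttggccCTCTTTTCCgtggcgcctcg, chr9:19380217-19380246, minus strand
RPS25: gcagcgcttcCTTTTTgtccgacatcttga, chr11:119018324-119018353, minus strand
RPS27A: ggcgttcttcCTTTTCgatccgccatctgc, chr2:55232678-55232707, plus strand
RPS28: gaagcacgtgactcctctccgccagaccgc, chr19:8321486-8321515, plus strand
The run was 6 to 10 bases long in the first 6 genes, called higher, and 6 bases in both RPS25 and RPS27A, called lower. RPL36, also called higher and not shown, had a run of 6 bases. These are chosen examples, and run lengths of the other genes are not given here. Over all genes tested, 39.2% were called and 19.6% were called higher (edgeR's test, adjusted p under 0.05). Of the 46 genes whose start was of this kind, 14 were called higher and 2 lower, with a median log2 fold change of 0.16. Of the 15 tested genes with another start, 2 were called higher (RPS28 and RPL10A) and none lower, with a median of 0.09. Some of these genes, RPS28 among them, have such a run near the start but not at it.

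As a family, the ribosomal protein genes showed small differences between the conditions. They took 4.81%, 5.24% and 4.90% of the counts in si-SNHG17 libraries, against 4.09%, 4.19% and 4.71% in si-NC libraries, which is 4.98% ± 0.22 and 4.33% ± 0.34 (SD, n = 3 each). The groups did not overlap, but si-NC replicate 3 came close to si-SNHG17 replicate 1. Of the 77 genes, 76 passed the low-count filter. Their median log2 fold change was 0.11, against 0.01 over all 15614 genes tested, and 59 values were positive and 17 negative. Their spread was narrow, with an interquartile range of 0.24 on the log2 scale against 0.65 over all genes.

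**Figure D1:**
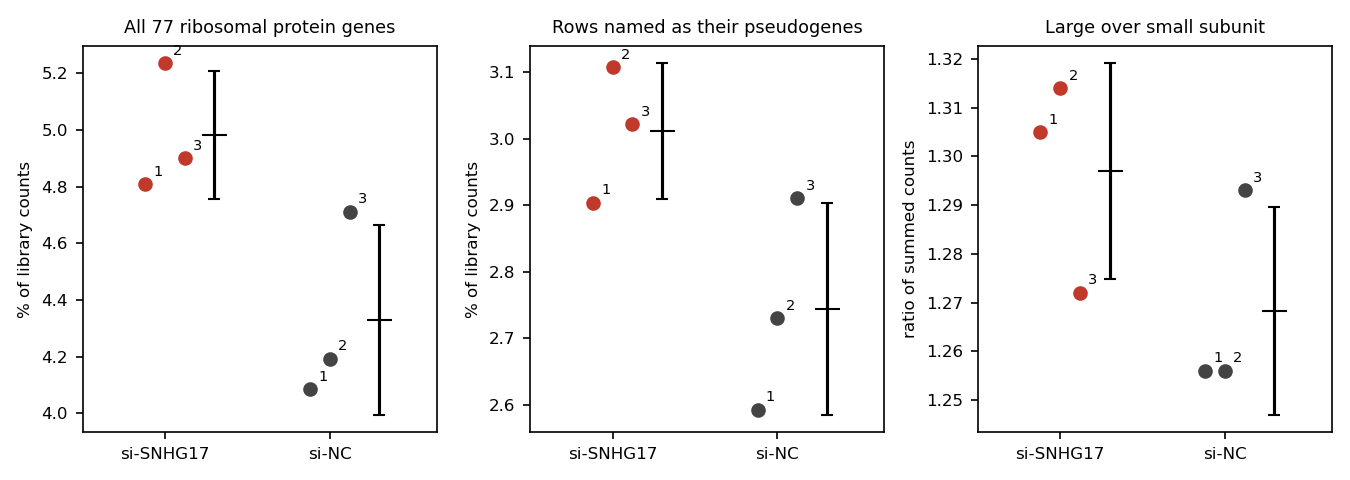
Share of library counts on the 77 ribosomal protein genes (left, percent), share on the rows named as their pseudogenes (middle, percent), and ratio of summed large-subunit to small-subunit counts (right), by library. Points are libraries with their replicate number, and bars are mean ± SD of 3 libraries; the axes do not start at 0. The share on ribosomal protein genes was 4.81% to 5.24% in si-SNHG17 and 4.09% to 4.71% in si-NC libraries, while the subunit ratios overlapped.

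The test called 20 of the 76 genes higher and 3 lower at an adjusted p of 0.05, which is 30.3% of them. Over all genes tested, 39.2% were called, 19.6% higher and 19.6% lower, so the share of ribosomal protein genes called was below the background. The share called higher was 26.3%, against 19.6% of all genes and 23.1% of the rows of type mRNA, the type of every ribosomal protein gene, of which 43.3% were called in either direction. This order did not hold in every fit. With the fit made on mRNA rows only, 14 genes (18.4%) were called higher and 4 lower, against 21.8% and 22.3% of all mRNA rows, and RPL8, RPL10, RPL10A, RPL18, RPS6 and RPS18 were no longer called. Only 4 of the 23 called genes differed by at least 1.5-fold (RPL13A, RPL28, RPS28 and RPL23A), whereas 21.4% of all genes were called and differed by that much. The groups did not overlap for 18 genes higher and 4 lower in si-SNHG17, against 25.1% and 24.3% of all genes. Single libraries moved these counts. Without si-NC replicate 3, 39 genes were called higher and 4 lower, against 21% and 20.6% of all genes. The count called higher was 10 without si-NC replicate 1 (13.2%, against 16.4% of all genes), 12 without si-SNHG17 replicate 2 (15.8%, against 16.6%) and 11 without si-NC replicate 2 (14.5%, against 15.6%). An offset for transcript length and GC content gave 35 higher and 2 lower, against 20.6% and 22.2% of all genes.

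The libraries of a group differed from each other across the whole family. Among si-SNHG17 libraries, replicate 2 had the highest CPM for 51 of the 76 genes. Among si-NC libraries, replicate 3 was highest for 54 genes and replicate 1 lowest for 45. Of the 23 calls, 11 were kept in all 6 fits that left out a library, and 9 were kept in all 17 alternatives, among them RPL13, RPL13A, RPL23, RPL28, RPL31, RPL36 and RPS27, higher, and RPS25, lower.

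The large and the small subunit were close to each other. The large-subunit genes had 13 called higher and 1 lower of 46, with a median log2 fold change of 0.11, and the small-subunit genes 7 higher and 2 lower of 30, with a median of 0.11. The shares called were 30.4% and 30%. Summed large-subunit counts were 1.30, 1.31 and 1.27 times the summed small-subunit counts in si-SNHG17 libraries, against 1.26, 1.26 and 1.29 times in si-NC libraries. The ratios overlapped, since si-NC replicate 3 lay above si-SNHG17 replicate 3, and their means were 1.30 ± 0.02 and 1.27 ± 0.02 (SD, n = 3 each).

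**Figure D2:**
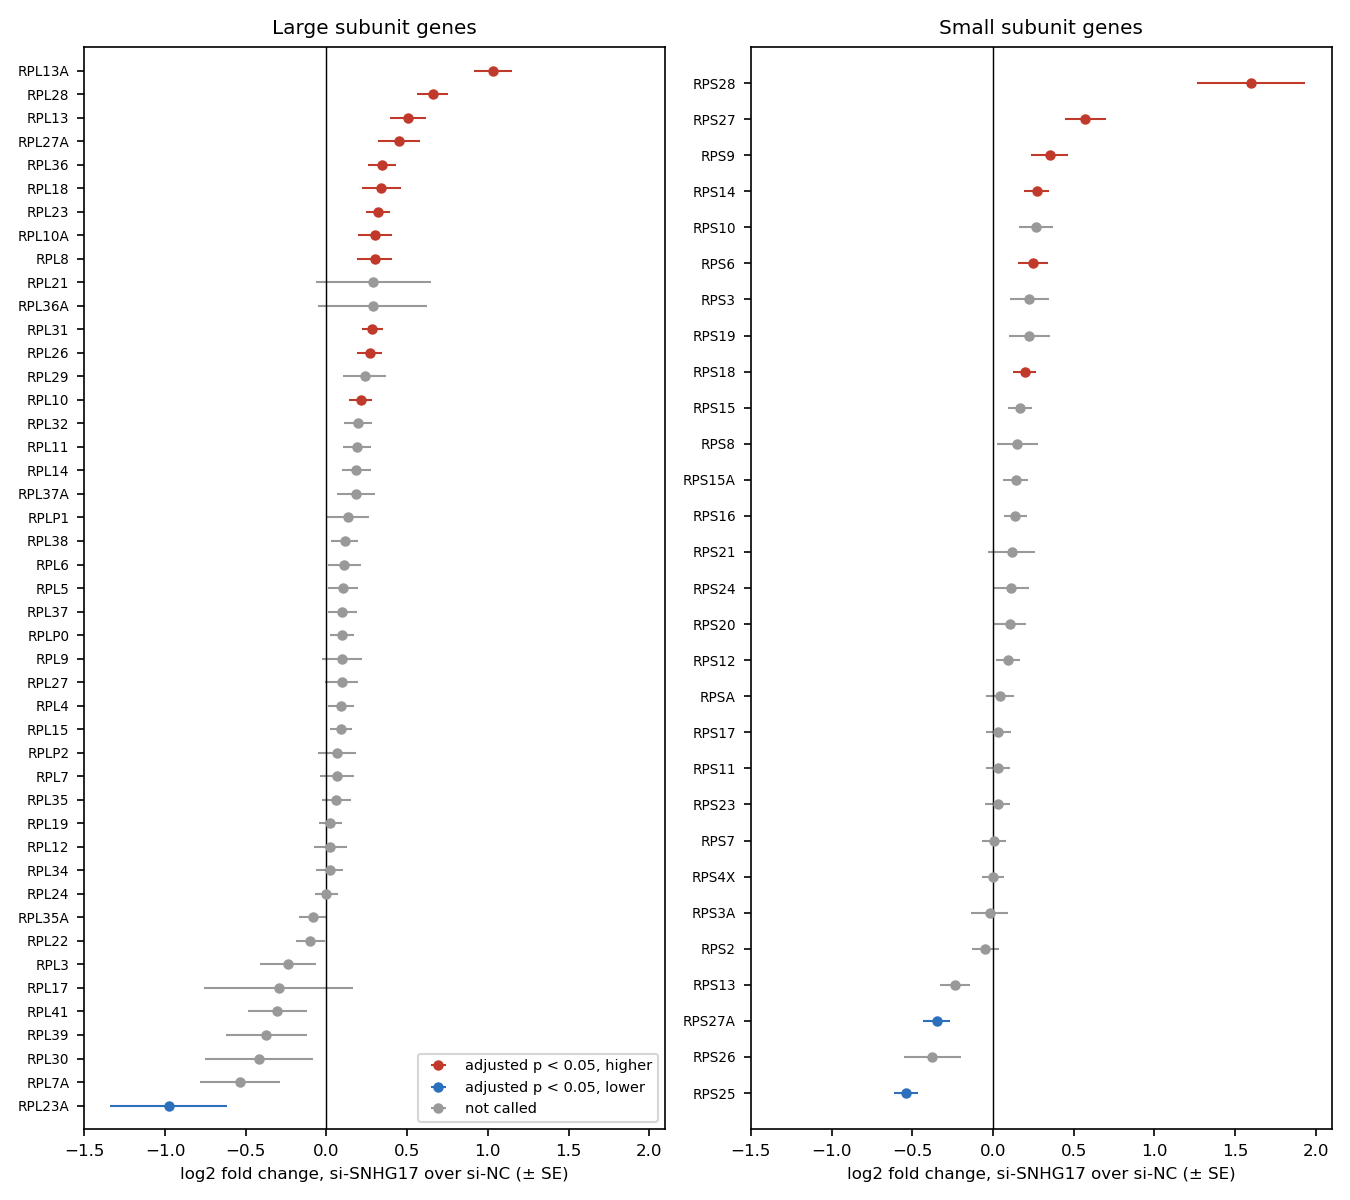
Log2 fold change of si-SNHG17 over si-NC for the large-subunit (left) and small-subunit genes tested (right), a few of which are left out, with bars of 1 standard error of the edgeR fit, 3 libraries per group. Red marks genes called higher, blue genes called lower and grey genes not called at an adjusted p of 0.05; most values lie between 0 and 0.5, and RPS28, RPL13A and RPL23A lie farthest from 0.

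RPL13A, a large-subunit protein that in human myeloid cells is also released from the ribosome as part of a translational silencer, had the smallest p. Its own row held 50.2, 60.2 and 46.4 CPM in si-SNHG17 libraries, against 24.9, 24.1 and 27.9 CPM in si-NC libraries. Every si-SNHG17 library was above every si-NC library. The log2 fold change was 1.03 ± 0.12 (SE, adjusted p = 1.28e-05), and leaving out each library gave 0.92 to 1.11. RPL28, a large-subunit protein found in eukaryotic ribosomes, had 941, 998 and 907 CPM in si-SNHG17 libraries, against 584, 522 and 696 CPM in si-NC libraries. These groups also lay apart, with a log2 fold change of 0.66 ± 0.10 (adjusted p = 0.000103).

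RPL13, a large-subunit protein whose variants cause a skeletal dysplasia, had 182, 222 and 187 CPM in si-SNHG17 libraries, against 123, 128 and 165 CPM in si-NC libraries (log2 fold change 0.50 ± 0.11, adjusted p = 0.00288). All si-SNHG17 libraries were higher, with si-NC replicate 3 nearest to them. RPL23, which like RPL5 and RPL11 can bind MDM2, had 1115, 1267 and 1260.0 CPM in si-SNHG17 libraries, against 965, 999.9 and 949.6 CPM in si-NC libraries (0.32 ± 0.07, adjusted p = 0.00373). RPL31, a protein at the opening of the exit tunnel, had 1609, 1620.0 and 1574 CPM in si-SNHG17 libraries, against 1288, 1309 and 1346 CPM in si-NC libraries (0.28 ± 0.07, adjusted p = 0.00417). In both genes the groups did not overlap, and for RPL31 the libraries within a group were close together.

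RPL36 had 229, 239.6 and 239 CPM in si-SNHG17 libraries, against 169.7, 176 and 211 CPM in si-NC libraries (0.34 ± 0.09, adjusted p = 0.00695). It is a large-subunit protein, and every si-SNHG17 library was higher. RPL26, which lies near the exit tunnel and carries the UFM1 modification, had 958, 914 and 995 CPM in si-SNHG17 libraries, against 749, 773 and 859.6 CPM in si-NC libraries (0.27 ± 0.08, adjusted p = 0.013). RPL27A had 35.0, 38.8 and 46.1 CPM in si-SNHG17 libraries, against 24.1, 31.3 and 32.1 CPM in si-NC libraries (0.45 ± 0.13, adjusted p = 0.0157). The groups lay apart in these 2 genes as well, but the RPL26 and RPL27A calls were lost without si-SNHG17 replicate 3 or si-NC replicate 1, and that of RPL26 also without si-NC replicate 2. Other large-subunit genes called higher were RPL10 (0.21), RPL18 (0.34), RPL10A (0.30) and RPL8 (0.30), with adjusted p of 0.0289 to 0.0392. These 4 calls were lost when si-SNHG17 replicate 1, si-SNHG17 replicate 2 or si-NC replicate 1 was left out, and those of RPL18, RPL10A and RPL8 also without si-NC replicate 2.

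In the small subunit, RPS28, a protein of the head near the mRNA exit, had the greatest fold change of the family on low counts, which were 171, 476 and 104 in si-SNHG17 libraries, against 50, 77 and 99 in si-NC libraries. These counts were 17.8, 37.9 and 11.8 CPM in si-SNHG17 libraries, against 5.68, 7.57 and 9.25 CPM in si-NC libraries. The groups lay apart, but replicate 2 was far above the other two si-SNHG17 libraries. The log2 fold change was 1.60 ± 0.34 (adjusted p = 0.00184), and leaving out each library gave 0.98 to 1.90. RPS27, a zinc-binding protein also known as metallopanstimulin, had 58.5, 70.1 and 60.8 CPM in si-SNHG17 libraries, against 35.9, 39.9 and 51.5 CPM in si-NC libraries (0.57 ± 0.13, adjusted p = 0.00281). Its groups did not overlap.

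RPS14, whose loss on chromosome arm 5q contributes to a myelodysplastic syndrome, had 1544, 1759 and 1723 CPM in si-SNHG17 libraries, against 1356, 1327 and 1486 CPM in si-NC libraries (0.27 ± 0.08, adjusted p = 0.0137). The groups lay apart. RPS9 had 783, 907 and 794 CPM in si-SNHG17 libraries, against 578, 578 and 792 CPM in si-NC libraries (0.35 ± 0.11, adjusted p = 0.0239), and here si-NC replicate 3 lay within the si-SNHG17 values. The RPS14 and RPS9 calls were lost without si-SNHG17 replicate 2 or 3 or si-NC replicate 1 or 2. RPS18 (0.20) and RPS6 (0.25) were called at adjusted p of 0.0427 and 0.0486. Both of these calls were kept without si-NC replicate 3 and lost in the other five fits that left out a library. RPS6, the substrate of the S6 kinases downstream of mTORC1, had 2464, 2682 and 2582 CPM in si-SNHG17 libraries, against 1844, 2234 and 2432 CPM in si-NC libraries, and its groups did not overlap.

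The small subunit also held 2 of the 3 genes called lower. RPS25, a head protein that viral internal ribosome entry sites depend on, had 264, 244 and 274 CPM in si-SNHG17 libraries, against 375, 382 and 383 CPM in si-NC libraries. All 3 si-SNHG17 libraries were well below the tightly grouped si-NC libraries, with a log2 fold change of -0.54 ± 0.07 (adjusted p = 5.75e-05) and values of -0.57 to -0.49 when each library was left out. RPS27A, which is made as a fusion with ubiquitin, had 232, 204 and 244 CPM in si-SNHG17 libraries, against 305, 291 and 271 CPM in si-NC libraries (-0.35 ± 0.08, adjusted p = 0.00497), again without overlap. The third, RPL23A of the exit tunnel, had 44, 42 and 52 counts in si-SNHG17 libraries, against 102, 121 and 38 in si-NC libraries (-0.98 ± 0.36, adjusted p = 0.0455). Here si-NC replicate 3 was the lowest of all 6 libraries by count, and the call was kept without it (-1.38) but lost when any other library was left out. It was also lost with DESeq2 (adjusted p = 0.184), limma-voom (adjusted p = 0.139), library totals only (adjusted p = 0.0569) and the length and GC offset (adjusted p = 0.073).

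**Figure D3:**
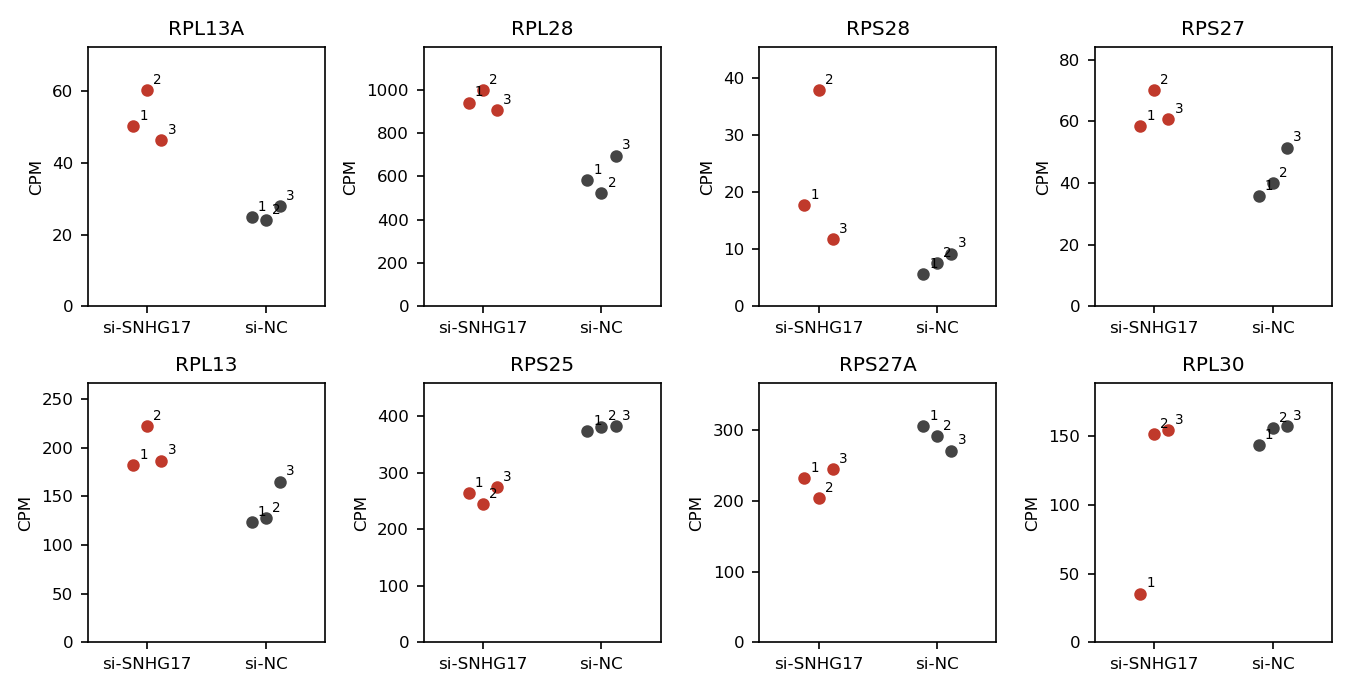
CPM by library for 5 genes called higher in si-SNHG17 cells (RPL13A, RPL28, RPS28, RPS27, RPL13), 2 called lower (RPS25, RPS27A) and RPL30, which was not called. Points are libraries with their replicate number, and each axis starts at 0; the groups lie apart in the first 7 panels, and in RPL30 si-SNHG17 replicate 1 alone is low at 35.5 CPM.

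By position in the ribosome, the calls were spread over several regions, and their counts are set against the 39.2% of all genes that were called. Of the 5S particle, RPL5 and RPL11, which with 5S rRNA also bind the ubiquitin ligase MDM2, neither was called by edgeR, DESeq2 or limma-voom, although RPL11 had an unadjusted p under 0.05 in edgeR and limma-voom. In edgeR, RPL11 was called higher without si-NC replicate 3 (0.27, adjusted p = 0.00391), with library totals only (0.23, adjusted p = 0.042) and with the length and GC offset (0.29, adjusted p = 0.00526). RPL5 had 291, 344 and 325 CPM in si-SNHG17 libraries, against 339, 280.4 and 274 CPM in si-NC libraries (0.10 ± 0.09, adjusted p = 0.41). RPL11 had 759, 873 and 801 CPM in si-SNHG17 libraries, against 664, 678 and 796 CPM in si-NC libraries (0.19 ± 0.09, adjusted p = 0.103). The groups overlapped for both. None of the 4 genes of the P stalk and its base, which recruits translation factors, was called by edgeR, DESeq2 or limma-voom, and 0 had an unadjusted p under 0.05 in any of them. RPLP0 had 1854, 2010.0 and 1751 CPM in si-SNHG17 libraries, against 1749, 1691 and 1806 CPM in si-NC libraries (0.10 ± 0.07, adjusted p = 0.324). RPLP1 had 904, 1151 and 849.9 CPM in si-SNHG17 libraries, against 772, 802 and 1075 CPM in si-NC libraries (0.13 ± 0.13, adjusted p = 0.445). RPLP2 had 419, 418 and 460.1 CPM in si-SNHG17 libraries, against 350.5, 374 and 514 CPM in si-NC libraries (0.07 ± 0.12, adjusted p = 0.691). In all 3 the groups overlapped, as they did for RPL12 at the base of the stalk (0.02), and leaving out 1 library moved RPLP1 and RPLP2 either way. RPLP1 changed sign in 1 and RPLP2 in 2 of these fits, and both were called higher without si-NC replicate 3 (0.30, adjusted p = 0.0159, and 0.25, adjusted p = 0.00684). RPLP0 was called higher with the length and GC offset (0.18, adjusted p = 0.0231).

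Of 9 proteins at the exit tunnel, RPL31 and RPL26 were called higher and RPL23A lower, which is 33.3% of them. Of 3 that approach the peptidyl transferase center, RPL8 and RPL10 were called higher, and RPL3 was not called (-0.24, adjusted p = 0.299). Of 13 tested head proteins of the small subunit, 3 were called higher, among them RPS18 and RPS28, and RPS25 and RPS27A were called lower. That share, 38.5%, is close to the 39.2% over all genes. RPS19, the head protein most often affected in Diamond-Blackfan anemia, had 1497, 1885 and 1619 CPM in si-SNHG17 libraries, against 1147, 1390.0 and 1741 CPM in si-NC libraries, which overlapped (0.23 ± 0.13, adjusted p = 0.176).

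Some genes rested on 1 library. RPL30 had 341, 1898 and 1356 counts in si-SNHG17 libraries, against 1262, 1583 and 1681 in si-NC libraries. The other five libraries lay close together, and its log2 fold change was -0.42 ± 0.34 (adjusted p = 0.354), or 0.01 without the low si-SNHG17 replicate 1. RPL39 was low in si-SNHG17 replicate 2, with 79.0, 33.8 and 98.3 CPM in si-SNHG17 libraries against 96.7, 90.9 and 83.6 CPM in si-NC libraries (-0.37 ± 0.25, adjusted p = 0.265). RPL41 was low in si-NC replicate 1, with 142, 145 and 143 CPM in si-SNHG17 libraries against 108, 199 and 223 CPM in si-NC libraries (-0.30 ± 0.18, adjusted p = 0.208). In both genes the other libraries of the group lay higher, and without si-NC replicate 1 RPL41 was called lower (-0.56, adjusted p = 0.000227). RPS29, a zinc-binding head protein, was the gene not tested, with 4, 2 and 7 counts in si-SNHG17 libraries against 2, 1 and 1 in si-NC libraries, where a count of 0 would allow up to 3.

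Levels between genes were compared per kb of transcript. The highest large-subunit genes were RPL37A, RPL19 and RPL8, with 3058, 2837 and 2770.0 CPM per kb in si-SNHG17 and 2692, 2789 and 2252 CPM per kb in si-NC cells. RPL37A had 1464, 1868 and 1521 CPM in si-SNHG17 libraries, against 1228, 1346 and 1697 CPM in si-NC libraries. RPL19 had 2143, 2027 and 2104 CPM in si-SNHG17 libraries, against 1941, 2010.0 and 2215 CPM in si-NC libraries, so neither group was clearly higher. RPL8 had 2547, 3064 and 2409 CPM in si-SNHG17 libraries, against 1979, 2015 and 2527 CPM in si-NC libraries. In each of these 3 genes the groups overlapped. The highest small-subunit gene was RPS16, with 5284 CPM per kb in si-SNHG17 and 4799 CPM per kb in si-NC cells, followed by RPS19 and RPS6. RPS16 had 2941, 2962 and 2895 CPM in si-SNHG17 libraries, against 2581, 2545 and 2865 CPM in si-NC libraries. These groups did not overlap, yet the gene was not called (0.14 ± 0.07, adjusted p = 0.146).

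At the other end were RPL17, RPL21 and RPL36A in the large subunit, with 1.85, 3.17 and 4.50 CPM per kb in si-SNHG17 and 2.33, 2.52 and 3.60 CPM per kb in si-NC cells. RPL17 had 18, 20 and 4 counts in si-SNHG17 libraries and 11, 26 and 12 in si-NC libraries. RPL21 had 22, 15 and 23 counts in si-SNHG17 libraries and 13, 20 and 15 in si-NC libraries. All were low, and the same held for RPL36A, with 22, 27 and 43 counts in si-SNHG17 libraries and 20, 30 and 24 in si-NC libraries. All 3 genes overlapped between groups. In the small subunit the lowest tested genes were RPS26 with 5.93, 7.49 and 6.48 CPM in si-SNHG17 and 8.29, 9.74 and 7.94 CPM in si-NC libraries, RPS28, and RPS3A with 30.4, 33.9 and 36.9 CPM in si-SNHG17 and 36.7, 30.5 and 35.6 CPM in si-NC libraries. RPS26 did not overlap between groups and was not called (-0.38 ± 0.18, adjusted p = 0.108), while RPS3A overlapped.

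These low rows belonged to genes whose reads lay mostly on rows named as their pseudogenes. The table held 1916 rows named as a ribosomal protein symbol followed by P and a number, of which 1396 had reads, and all 77 genes had at least 1. Together the pseudogene rows held 3.01% ± 0.10 of all counts in si-SNHG17 libraries and 2.75% ± 0.16 in si-NC libraries (SD, n = 3 each). Of the sum of a gene's own row and its pseudogene rows, 37.7% ± 0.4 lay on pseudogene rows in si-SNHG17 and 38.8% ± 0.6 in si-NC libraries. For 33 of the 77 genes pseudogene rows held over 50% of the sum, and for 14 over 90%, among them RPL36A (99.6%), RPL23A (99.3%), RPL17 (99.3%), RPS29 (99.2%), RPL21 (98.7%), RPL13A (98.4%) and RPS28 (94.9%). Across the 77 genes this share was lower where the own row's log2 CPM per kb was higher (Pearson's r -0.83, Spearman's rho -0.83), a description only, since both measures hold the own row's counts. The sources used here do not say how reads that match a gene and a copy were counted, and own-row values are uncertain to that extent.

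**Figure D4:**
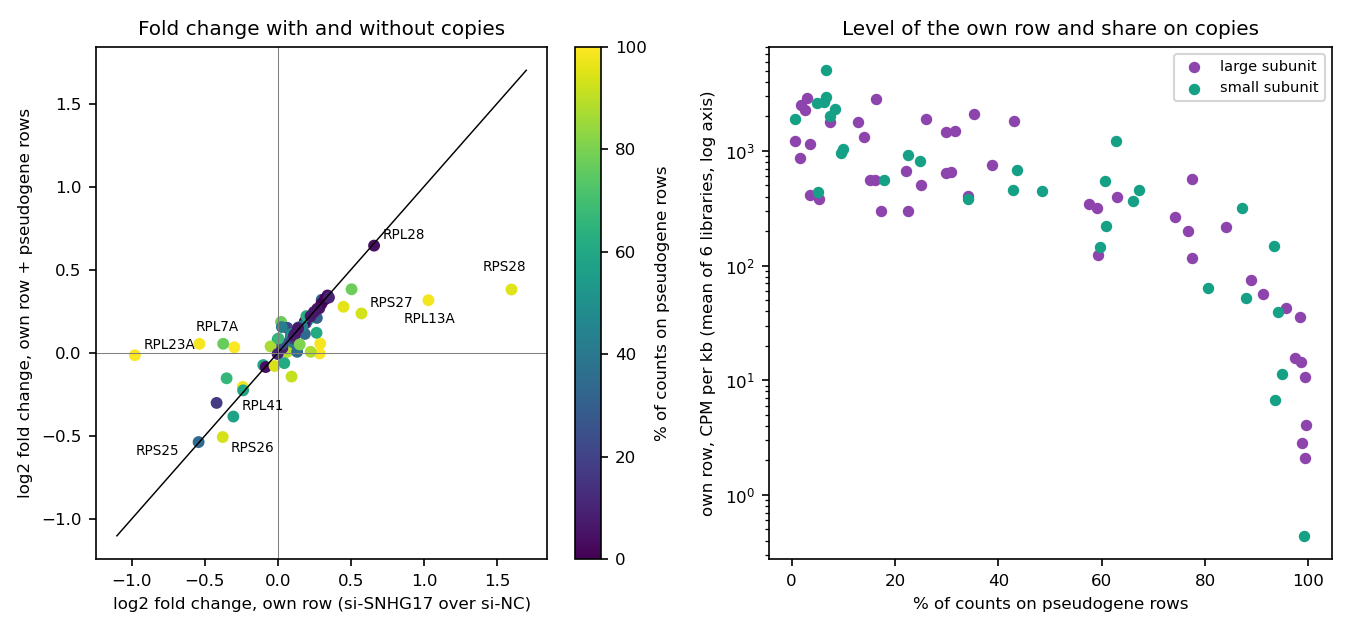
Left, log2 fold change (si-SNHG17 over si-NC) of each of the 76 tested genes from its own row (x) and from its own row summed with its pseudogene rows (y), colored by the percent of counts on pseudogene rows, with the line of equal values. Right, level of the own row in CPM per kb (log axis, mean of 6 libraries) against the percent of counts on pseudogene rows for all 77 genes; RPS28, RPL13A and RPL23A, each with over 90% on pseudogene rows, differ most from their own-row values when summed, and RPL28 and RPS25 stay on the line.

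Summing each gene with its pseudogene rows before the fit left 18 genes called higher and 4 lower (background 20.6% and 20.2%), of which 19 were shared with the own-row calls. RPL13A is an example. Its copy RPL13AP5 alone held 22566, 30532 and 23495 counts in si-SNHG17 libraries, against 16852, 20033 and 21674 in si-NC libraries. The summed RPL13A was called higher at a smaller log2 fold change of 0.32 ± 0.07 (adjusted p = 0.0033). Summed, RPS28 was at 0.38 ± 0.17 (adjusted p = 0.0978), RPL23A at -0.01 (adjusted p = 0.912), RPS27A at -0.15 (adjusted p = 0.11) and RPL10 at 0.20 (adjusted p = 0.0964), and these 4 were no longer called. RPS27 was called at 0.24 in place of 0.57, and RPL28 (0.65) and RPS25 (-0.54) kept their values.

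Calls that appeared on summing were all lower. RPS26, a protein at the mRNA exit channel, had 88.6, 109.9 and 96.6 summed CPM in si-SNHG17 libraries, against 134, 142 and 144 in si-NC libraries (-0.51 ± 0.09, adjusted p = 0.000475). RPL41, a very short protein that bridges the subunits, had 331, 330.0 and 329 summed CPM in si-SNHG17 libraries, against 372, 458 and 462 in si-NC libraries (-0.38 ± 0.09, adjusted p = 0.00291). RPS13, a small-subunit protein, had a summed log2 fold change of -0.23 ± 0.07 (adjusted p = 0.0255). The RPS26 and RPL41 groups did not overlap. Of the pseudogene rows themselves, 551 were tested, 21 called higher and 29 lower, or 9.07% against the background of 39.2%. Their log2 fold changes had an interquartile range of 0.41, against 0.24 for the ribosomal protein genes and 0.65 over all genes tested. That spread was wider than in the ribosomal protein genes but narrower than over all genes. The part of count levels in the spread and in the low share called was not tested.

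Readthrough rows share exons with some of the genes. RPL36A-HNRNPH2 had 932, 265 and 188 counts in si-SNHG17 libraries, against 797, 286 and 1078 in si-NC libraries, so it varied several-fold inside each group. RPL17-C18orf32 had 11.3, 13.9 and 14.7 CPM in si-SNHG17 libraries, against 17.9, 16.1 and 17.4 CPM in si-NC libraries, which lay apart without a call (-0.37 ± 0.14, adjusted p = 0.0511). RPS10-NUDT3 was not called (0.33 ± 0.13, adjusted p = 0.0543). RPL17-C18orf32 and RPL36A-HNRNPH2 each held more counts than RPL17 and RPL36A themselves.

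By chromosome, a grouping chosen after the values were seen, 8 of the 12 genes on chromosome 19 were called higher and none lower, with a median log2 fold change of 0.33 and all 12 values positive. DESeq2 and limma-voom also called 8 higher and none lower. The count higher was 5 without si-NC replicate 2, 6 without si-SNHG17 replicate 2 or si-NC replicate 1, and 11 without si-NC replicate 3. They include RPL13A, RPL28, RPS28, RPL36, RPS9 and RPL18. Of the 64 tested genes on other chromosomes, 12 were called higher and 3 lower, with a median of 0.10. Among all 953 tested genes of chromosome 19, 28.3% were called higher and 13% lower. With the offset for transcript length and GC content, 10 of the 12 ribosomal protein genes there were called higher, against 20.6% of all genes. Summed with pseudogene rows, 7 were called higher, against 20.6% of all genes, and RPS28 was not called. The fit on mRNA rows only also called 7 higher, against 21.8% of all mRNA rows. Across the 76 genes, the log2 fold change was weakly related to the GC content of the transcript (Pearson's r 0.25, Spearman's rho 0.31). GC content was higher in the chromosome 19 genes, and its part in these counts was not otherwise tested. Over all genes tested with a GC value the same correlation was 0.09, and GC content had a median of 50.02% in the 76 genes and 50.2% in all genes, while the median transcript length was 698 and 2035 bases. Of 28 genes that host a snoRNA, 6 were called higher and 1 lower, and of 48 tested genes that host none, 14 were called higher and 2 lower. These shares, 25% and 33.3%, were both below the 39.2% over all genes.

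**Figure D5:**
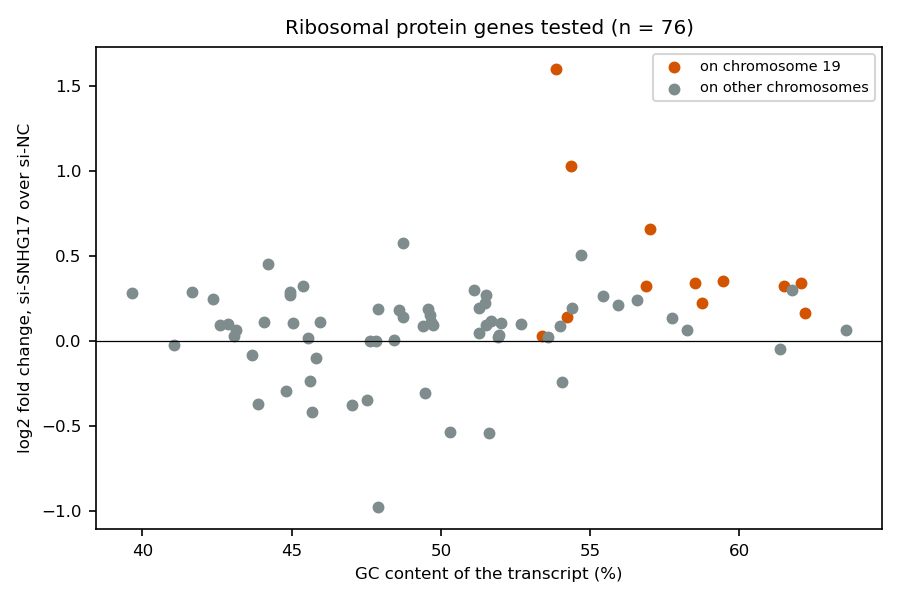
Log2 fold change of si-SNHG17 over si-NC (y) against GC content of the transcript in percent (x) for the 76 genes tested, one point per gene. Genes on chromosome 19 are orange and genes on other chromosomes grey; all 12 chromosome 19 genes lie above 0, at GC contents above the median of the family.

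Genes related to the family were read from the same fit, and their counts are to be set against the background of 39.2% called. Of the paralogs and ubiquitin fusions, 6 of 10 were tested and RPL36AL, a close paralog of RPL36A, was called higher, with 8.21, 8.13 and 9.89 CPM in si-SNHG17 libraries against 5.45, 4.92 and 6.82 CPM in si-NC libraries (0.60 ± 0.19, adjusted p = 0.0214). RPL36AL was no longer called when replicate 1 or 2 of si-NC or replicate 3 of si-SNHG17 was left out (adjusted p of 0.0641 to 0.0957). FAU, which encodes a ubiquitin-like fusion (0.15), RPS27L (-0.11), RPL22L1 (-0.06) and RPL7L1 (-0.05) were not called. Of 14 other mRNAs known to start with a TOP element, 3 were called higher and none lower by edgeR, DESeq2 and limma-voom alike, with a median log2 fold change of 0.11. With these tools, none was lower at an unadjusted p under 0.05. The genes called higher were NAP1L1, a nucleosome assembly protein (0.35, adjusted p = 0.00368), NPM1, the nucleolar chaperone nucleophosmin (0.27, adjusted p = 0.00861), and EIF3H, a subunit of initiation factor eIF3 (0.32, adjusted p = 0.0163). That share, 21.4%, is close to the 19.6% of all genes called higher. The length and GC offset gave 6 higher and 0 lower, and the fit without si-NC replicate 3 gave 4 higher and 1 lower.

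Of 8 elongation factors, 2 were called higher and 1 lower, a share of 37.5%. EEF2, which translocates the ribosome along mRNA, had 3678, 3811 and 3642 CPM in si-SNHG17 libraries, against 2358, 2184 and 2658 CPM in si-NC libraries (0.63 ± 0.08, adjusted p = 3.26e-05). EIF5A, which relieves stalls at proline stretches, had 478, 474 and 456 CPM in si-SNHG17 libraries, against 657, 705 and 704 CPM in si-NC libraries (-0.55 ± 0.07, adjusted p = 3.18e-05). Both pairs of groups lay apart. EEF1A2 was the other gene called higher (0.39, adjusted p = 0.00569), and the remaining 5 were not called. Of 25 tested initiation factors 9 were called higher and 4 lower. Those of smallest p, all higher, were EIF4A2 (0.57), EIF1 (0.48), EIF3D (0.39) and EIF4EBP2 (0.52), which inhibits the cap-binding factor EIF4E. The number called lower dropped to 0 without si-SNHG17 replicate 1 or with library totals only, and to 1 without si-SNHG17 replicate 2, si-SNHG17 replicate 3 or si-NC replicate 2, with the replicate block or with no low-count filter.

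Among 18 tested regulators of TOP mRNAs and of mTORC1, 6 were called higher and 4 lower. Without si-NC replicate 2 these counts were 3 and 2, and without si-SNHG17 replicate 3 they were 4 and 2. SESN1 and SESN2, sestrins that restrain mTORC1, were both higher. SESN1 had 33.9, 37.8 and 38.2 CPM in si-SNHG17 libraries, against 14.2, 13.97 and 15.3 CPM in si-NC libraries (1.34 ± 0.11, adjusted p = 7.78e-07), and SESN2 had a log2 fold change of 0.89 ± 0.10 (adjusted p = 1.32e-05). TSC1, part of the complex that inhibits mTORC1, was higher (0.83 ± 0.12, adjusted p = 7.95e-05), and RPS6KA3, a kinase that can phosphorylate RPS6, was lower (-0.52 ± 0.09, adjusted p = 0.000631). LARP1 had too few counts to be tested, with 2, 0 and 1 in si-SNHG17 libraries and 3, 4 and 0 in si-NC libraries. Whether the gene was little expressed or its reads were not counted on this row was not tested.

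Of 11 chaperones of ribosomal proteins and small-subunit assembly factors, 1 was called higher and 3 lower. NOB1, the endonuclease that matures 18S rRNA, had 301, 348 and 316 CPM in si-SNHG17 libraries, against 168, 163 and 195 CPM in si-NC libraries (0.88 ± 0.09, adjusted p = 3.88e-06). TSR2, the chaperone of RPS26, had 22.8, 26.0 and 20.9 CPM in si-SNHG17 libraries, against 32.1, 35.2 and 34.5 CPM in si-NC libraries (-0.54 ± 0.11, adjusted p = 0.00179). HEATR3, which carries RPL5 into the nucleus (-0.64, adjusted p = 0.00629), and GRWD1, a chaperone of RPL3 (-0.36, adjusted p = 0.0177), were also lower. MDM2, the ubiquitin ligase that free ribosomal proteins bind, had 162, 148 and 172 CPM in si-SNHG17 libraries, against 88.8, 85.2 and 74.6 CPM in si-NC libraries (0.96 ± 0.09, adjusted p = 2.51e-06), and CDKN1A, which encodes the cell cycle inhibitor p21, was higher as well (0.64 ± 0.10, adjusted p = 0.000156). MDM4, a relative of MDM2, was not called (0.17). The mRNA levels do not measure the proteins, and ribosomal protein release or translation was not analysed here.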

How the data were processed

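Raw read counts (whole numbers, not normalized) for each gene, with a gene type, were deposited by the authors. Per the labels' protocols, total RNA was made into libraries with an Ion Total RNA-Seq kit and read single-end on an Ion Proton. Per the submitters' processing notes the build was GRCh38. Aligner, counter, annotation, use of strand and treatment of multiply mapping reads were not given in the sources used here.

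The test was that of edgeR 4.0.16 in R 4.3.3 (filterByExpr, TMM factors 0.975 to 1.02, glmQLFit and glmQLFTest, group as the only term), with Benjamini-Hochberg adjustment over the 15614 genes tested and a threshold of 0.05. Every adjusted p in the text comes from edgeR's quasi-likelihood test, except the RPL23A values given for DESeq2 and limma-voom, which come from those tools. Log2 fold changes are of si-SNHG17 over si-NC. No pair of libraries was identical (chi-square per degree of freedom 2.25 to 8.85 within and 38.4 to 55.3 between groups). The procedure was tested on simulated data. Transcript length (the lower median over a gene's basic protein-coding transcripts), GC content and snoRNA positions came from GENCODE release 29, and starts from RefSeq.

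Alternatives were other scalings, DESeq2 1.42.0, limma-voom (limma 3.58.1), other filters, mRNA rows only, a replicate block, a length and GC offset (mgcv 1.9.3), summing with pseudogene rows and leaving out each library. Members and lists were chosen with earlier results of these data known. Values in every library are given for called genes (up to 16 by smallest p), the 3 highest and 3 lowest of each subunit per kb, genes too low to be tested, RPL5, RPL11, RPLP0, RPLP1, RPLP2, RPS6 and RPS19; up to 4 tested genes of each related list are named by smallest p. Some genes this rule names are not reported here.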

Additional observations from a re-analysis of the deposited data

How the results depend on the processing

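Against 20 genes called higher, leaving out each library gave 10 to 39, the length and GC offset 35 and mRNA rows only 14. Against 3 called lower, leaving out a library gave 2 to 4 and no low-count filter 7. The large subunit median log2 fold change, 0.11, was 0.0747 to 0.2035 with a library left out and 0.2113 with the offset. The small subunit median log2 fold change, 0.11, was 0.0511 to 0.1847 with a library left out and 0.2243 with the offset. The share of library counts on ribosomal protein genes differed by 0.652 percentage points (0.525 to 0.843 with a library left out), and the ratio of large over small subunit summed counts by 0.0287 (0.0202 to 0.0412). Of the related lists 24 genes were called higher (18 to 30 with a library left out) and 12 lower (6 to 13). SNHG17 was lower and called under every alternative except mRNA rows only, which leaves out this noncoding RNA. The replicate block gave 18 ribosomal protein genes higher and 2 lower (RPL10, RPL23A and RPS18 were lost), and 5580 genes in all against 6113, with 5516 shared. Same-numbered libraries did not deviate together (correlations 0.06, -0.11 and -0.08). No si-SNHG17 library was closest to the si-NC library sharing its number, and the numbers were not taken as pairs. Several log2 fold changes that were not called changed sign, and the cause was not tested. With a library left out, RPL17 ran from -0.5827 to 0.1749, RPL19 from -0.0162 to 0.0805, RPL30 from -0.6863 to 0.0102, RPL36A from -0.1637 to 0.5145, RPLP1 from -0.0079 to 0.2978, RPLP2 from -0.0407 to 0.2532, RPS3A from -0.1012 to 0.0523, RPL22L1 from -0.1281 to 0.0188 and RPL7L1 from -0.1465 to 0.0028. Summing with pseudogenes gave RPL17 0.0339, RPL36A -0.0032 and RPL39 0.0548, mRNA rows only RPL19 -0.0074, library totals RPS3A 0.0169, and the offset RPS3A 0.0848, RPL22L1 0.0694 and RPS27L 0.0114. Few counts on their own rows limit the precision for RPS29, RPL17, RPL21 and RPL36A, with 98.7% to 99.6% of their summed counts on pseudogene rows.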
